A study of Mus musculus with 9 samples.

Results

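Interferon-stimulated genes are the genes that a cell transcribes when interferon binds its receptors, and 44 of them, listed by symbol, from transcription factors and RNA sensors to antiviral effectors, are described here. They were matched to the symbol that the deposited expression table gives for each gene. Of the 44 genes, 38 had a row among the 12842 genes of the table, 35 exceeded a floor for low values and were tested, and 9 were well expressed, which here means a mean over the 9 libraries above 9.64, the median of all genes in the table on its log2 scale. Ddx60, Mx2, Rtp4, Gbp3, Ifi44 and Ifi27 had no row under those symbols and were not analysed here.

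The study sequenced poly-A RNA from NPK cells, mouse prostate cancer cells from lung metastases that were grown in culture. Every group shares the same engineered background, which includes an R26R-YFP reporter. The 3 control libraries are labelled as control cells, and the labels do not say whether a control vector or a vehicle was given. The study's methods name a luciferase hairpin in the same vector as its silencing control and DMSO as the vehicle for treated human cells, without linking either to these libraries. The 3 shNsd2 libraries carry a short hairpin RNA against Nsd2, which the study delivered in the pLKO.1 lentiviral vector, but in the source field of their labels the silenced gene is Nsd2 for the first, Nsd3 for the second and Nsd4 for the third. The 3 MCTP libraries were treated with a compound that their titles number MCTP39, MCTP40 and MCTP41 in turn, and the study used MCTP-39 as a putative inhibitor of NSD2, a histone methyltransferase. The 3 titles are read here as 1 treatment. The labels give no dose and no exposure time for these libraries.

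Type I interferon binds the receptor subunits IFNAR1 and IFNAR2, and the kinases JAK1 and TYK2 then phosphorylate STAT2, which joins IRF9 in a complex that binds the interferon-stimulated response element in promoters. Interferon gamma acts through IFNGR1, IFNGR2, JAK1 and JAK2, and its signal reaches gamma-activated sites. In carcinoma cells the same genes are also transcribed at a basal level and include sensors of viral RNA, enzymes that attach the ubiquitin-like protein ISG15, and proteins that block virus entry or replication.

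Values are on the deposited log2 scale, on which counts had been scaled and variance-stabilised, so that a difference of 1 is close to a doubling for an abundant gene and understates the change of a scarce one. The table used gives no counts, and how deeply each library was sequenced was not examined here. A gene is said to have risen or fallen, or to be called, when its limma p-value, adjusted over all genes tested in that comparison, was under 0.05. SE is the standard error of the difference of 2 group means, each over n = 3 libraries. The labels do not say whether replicates are separate cultures, so the p-values measure only the spread between these libraries.

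Nsd2, the gene silenced, read 12.48, 12.43 and 12.42 in the control libraries, 11.56, 11.61 and 11.68 in the shNsd2 libraries and 12.15, 12.21 and 12.07 in the MCTP libraries. The shNsd2 libraries were the lowest, the MCTP libraries lay between, and no groups overlapped. Nsd2 fell by 0.83 in shNsd2 (SE 0.04, adjusted p = 2.26e-06), which is 43.7% lower than control. In the MCTP libraries Nsd2 fell by 0.30 (SE 0.05, adjusted p = 0.00562).

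Cell type markers were read to check the label of prostate cancer cells. Of 8 epithelial markers 7 had a row, with Krt8 the most abundant although Epcam lay under the floor and Krt5 had no row. The summed epithelial level was 17.53, 17.71 and 17.66 in control, 17.50, 17.44 and 17.33 in shNsd2 and 17.91, 17.68 and 18.04 in MCTP. It was lowest in shNsd2, and MCTP overlapped control only through replicate 2. Of the keratins, Krt14 rose by 0.78 in shNsd2 and by 1.19 in MCTP, and Krt19 fell by 0.34 in shNsd2 and rose by 0.37 in MCTP, a rise lost without any library other than MCTP replicate 2 (adjusted p from 0.0782 to 0.13). Krt8 fell by 0.21 in shNsd2 (adjusted p = 0.0193), a call lost without control replicate 2 or 3 or shNsd2 replicate 3 (adjusted p from 0.0503 to 0.0747). In MCTP Krt8 differed by 0.25 (adjusted p = 0.0812), or by 0.35 without MCTP replicate 2 (adjusted p = 0.00182). Krt18 was called in neither group. Cdh1, the epithelial cadherin, fell by 0.20 in shNsd2 (adjusted p = 0.00368) and by 0.34 in MCTP (adjusted p = 0.00325). Cldn4, a tight junction protein, fell by 0.39 in shNsd2 and rose by 0.33 in MCTP, a rise lost without MCTP replicate 1 (adjusted p = 0.0569). Leukocytes, which express many interferon-stimulated genes, were represented by 2 of 15 markers, Cd14, the more abundant, and Cd68, while Ptprc, Itgam, Csf1r, Lyz2 and Tyrobp had no row. The summed leukocyte level was 10.38, 10.51 and 10.52 in control, 10.61, 10.59 and 10.59 in shNsd2 and 10.57, 10.44 and 10.61 in MCTP. Cd68, a lysosomal glycoprotein, read 6.50, 6.51 and 6.60 in control, 6.78, 6.78 and 6.72 in shNsd2 and 7.20, 7.15 and 7.44 in MCTP. It was lowest in every control library and highest in every MCTP library, and its part in the results on interferon-stimulated genes was not tested. Fibroblast markers had a row for 4 of 7 genes, with Col3a1 the most abundant and Dcn under the floor, and summed levels were 11.12, 10.92 and 11.06 in control, 10.76, 10.75 and 10.75 in shNsd2 and 10.96, 10.90 and 10.81 in MCTP. The sum mostly follows Col3a1. Col1a1 fell by 0.30 in shNsd2 (adjusted p = 0.00111) and by 0.33 in MCTP (adjusted p = 0.0105). Pdgfra went the other way in shNsd2, higher by 0.13 (adjusted p = 0.00161). Of 6 endothelial markers only Cdh5 had a row, under the floor. In bulk RNA, fewer cells of a type and less RNA per cell cannot be told apart.

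MCTP replicate 2 stood apart from the other libraries. Across 11952 genes, which are not independent replicates, its deviation from the mean of its group had a standard deviation of 0.139 and correlated with the GC content of the gene at r = -0.71. MCTP replicate 3 deviated the other way (standard deviation 0.105, r = 0.69), and MCTP replicate 1 had a standard deviation of 0.054 and r = 0.50. Such deviations cancel out over a group for each gene, so the trends of its libraries are not independent. The values of r were -0.60, 0.36 and 0.57 for control and 0.45, 0.56 and -0.66 for shNsd2, where standard deviations ran from 0.040 to 0.079. Among the interferon-stimulated genes tested, GC content ran from 38.8% in Samd9l to 57.4% in Isg20, with a median of 49.4% beside 49.8% for all genes with a value. Samd9l, an antiviral restriction factor of low GC content, read 8.58, 9.13 and 8.53 in the MCTP libraries and Isg20, an RNA exonuclease of high GC content, read 9.43, 9.21 and 9.52. MCTP replicate 2 was thus the highest of its group for the first gene and the lowest for the second. Counts of called genes over the list in the comparisons with MCTP are therefore given with and without this library. Counts by role are given both ways where they move. Leaving it out keeps MCTP replicates 1 and 3, whose deviations both had a positive r, so it is not a correction for GC content. Herc6, for example, was called in MCTP against control at -0.19 without this library and at 0.15 after a GC correction. Whether leaving it out lessens or strengthens a GC trend was not tested.

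**Figure D1:**
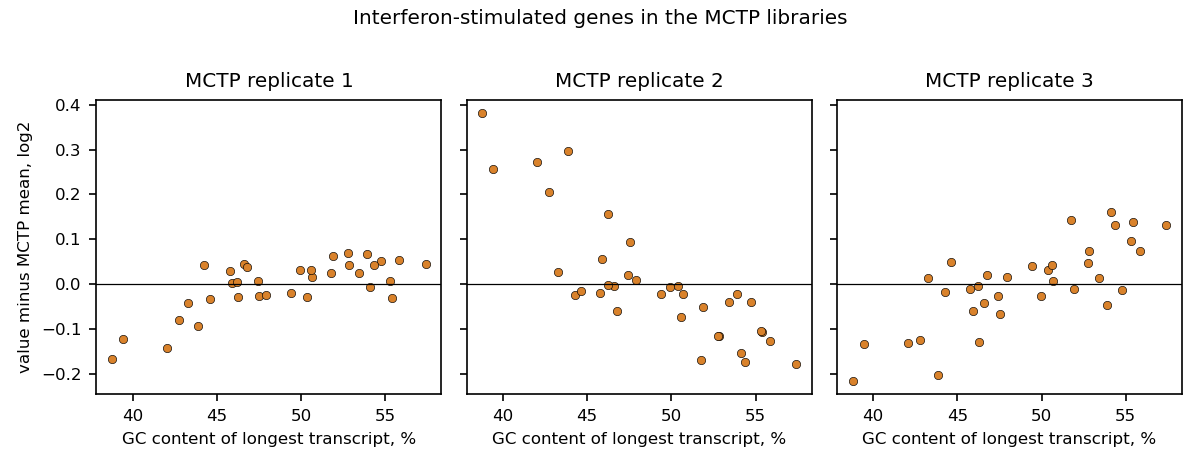
Deviation of each of the 35 interferon-stimulated genes tested from its mean over the MCTP libraries (log2) against the GC content of its longest transcript (%), with 1 panel per library. In MCTP replicate 2 most of the genes of lowest GC content lie above 0 and those of highest GC content below it. Exceptions include Rsad2 and Nmi. In replicate 3 the trend is the opposite, though deviations cancel out over the MCTP libraries for each gene, so the panels are not independent.

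Silencing of Nsd2 was compared with control to ask how the cells' interferon-stimulated transcripts differ when Nsd2 RNA is lower. Antiviral effectors such as Rsad2, Cmpk2 and Oasl2 rose, while the RNA sensor Ddx58, the GTPase Gbp2, Parp9, Parp12 and Parp14 and the membrane proteins Ifitm1 and Ifitm3 fell. Of the 35 genes tested 20 were called (57.1%), beside 47.8% of all 12205 genes tested. Risen genes numbered 7 (20.0%), beside 23.1% of all genes, and fallen genes 13 (37.1%), beside 24.8%. The median difference of the 35 genes was -0.08 and that of all genes 0.00, and the median absolute difference was 0.14 beside 0.12. All 20 called genes had groups that did not overlap, as did 98.4% of all called genes. Of the 20, 12 were also called with any 1 of the 6 libraries left out. The genes that were not are named with their libraries where their values are given. Over all genes, 4340 to 6018 were called with 1 library left out, and how many were kept throughout is not given here. The 15 genes not called differed by -0.15 to 0.12. With all 9 libraries in 1 fit 15 genes were called, without Irf7, Stat2, Ifih1, Ifitm2 and Isg20, and 4320 of all genes (35.4%) in place of 5836.

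MCTP treatment was compared with control to ask the same of cells exposed to the compound. Ifi35, Xaf1, Gbp2, the transcription factors Irf7 and Irf9, Cmpk2, Ddx58 and Uba7 rose, and Ifitm1 and Nmi fell. Of the 35 genes tested 10 were called (28.6%), beside 35.2% of all 12216 genes tested. Risen genes numbered 8 (22.9%), beside 18.0% of all genes, and fallen genes 2 (5.71%), beside 17.2%. The median difference was 0.05 beside -0.01 for all genes, and the median absolute difference was 0.10 beside 0.15. Without MCTP replicate 2, 20 of the genes were called, with 15 risen and 5 fallen, the median difference was 0.08, and 7384 of all genes (60.4%) were called in place of 4305. Without control replicate 1, 2 or 3 or MCTP replicate 1, 7 interferon-stimulated genes were called, 6 risen and 1 fallen, and the count over all genes was 2366, 2162, 2456 and 2046 in that order, against 2842 without MCTP replicate 3. The 25 genes not called differed by -0.20 to 0.21. After a correction of each library for GC content 13 were called, 12 risen and 1 fallen, with Herc6, Ifit1, Ifit2, Rsad2 and Samd9l gained and Nmi and Uba7 lost, beside 5449 of all genes (45.6%). With all 9 libraries in 1 fit 14 were called, 12 risen and 2 fallen, with Bst2, Dhx58, Ifitm3 and Trim25 gained, beside 5699 of all genes (46.7%).

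The direct comparison of shNsd2 with MCTP tests whether the 2 groups differ, and both comparisons with control share the same 3 control libraries. Rsad2 and Oasl2 were higher in shNsd2, and Gbp2, Ddx58, Ifi35, Ifitm3, Irf7, Parp12, Xaf1, Isg20, Parp9, Uba7, Lgals3bp and Dhx58 were lower. Of the 35 genes tested 14 were called (40%), beside 43.2% of all 12217 genes tested. Genes higher in shNsd2 numbered 2 (5.71%), beside 20.6% of all genes, and genes lower numbered 12 (34.3%), beside 22.6%. The median difference was -0.09 beside 0.01 for all genes, and the median absolute difference was 0.12 beside 0.15. Of the 14, 11 were also called with any 1 of the 6 libraries left out, and the exceptions were Isg20, Lgals3bp and Parp9. How many of all called genes were kept throughout is not given here. Without MCTP replicate 2, 20 of the genes were called, 3 higher and 17 lower, beside 7781 of all genes (63.7%). Over all genes, 5276 were called with every library, against 3391 without MCTP replicate 1, 3429 without shNsd2 replicate 2 and 3420 without shNsd2 replicate 3.

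**Figure D2:**
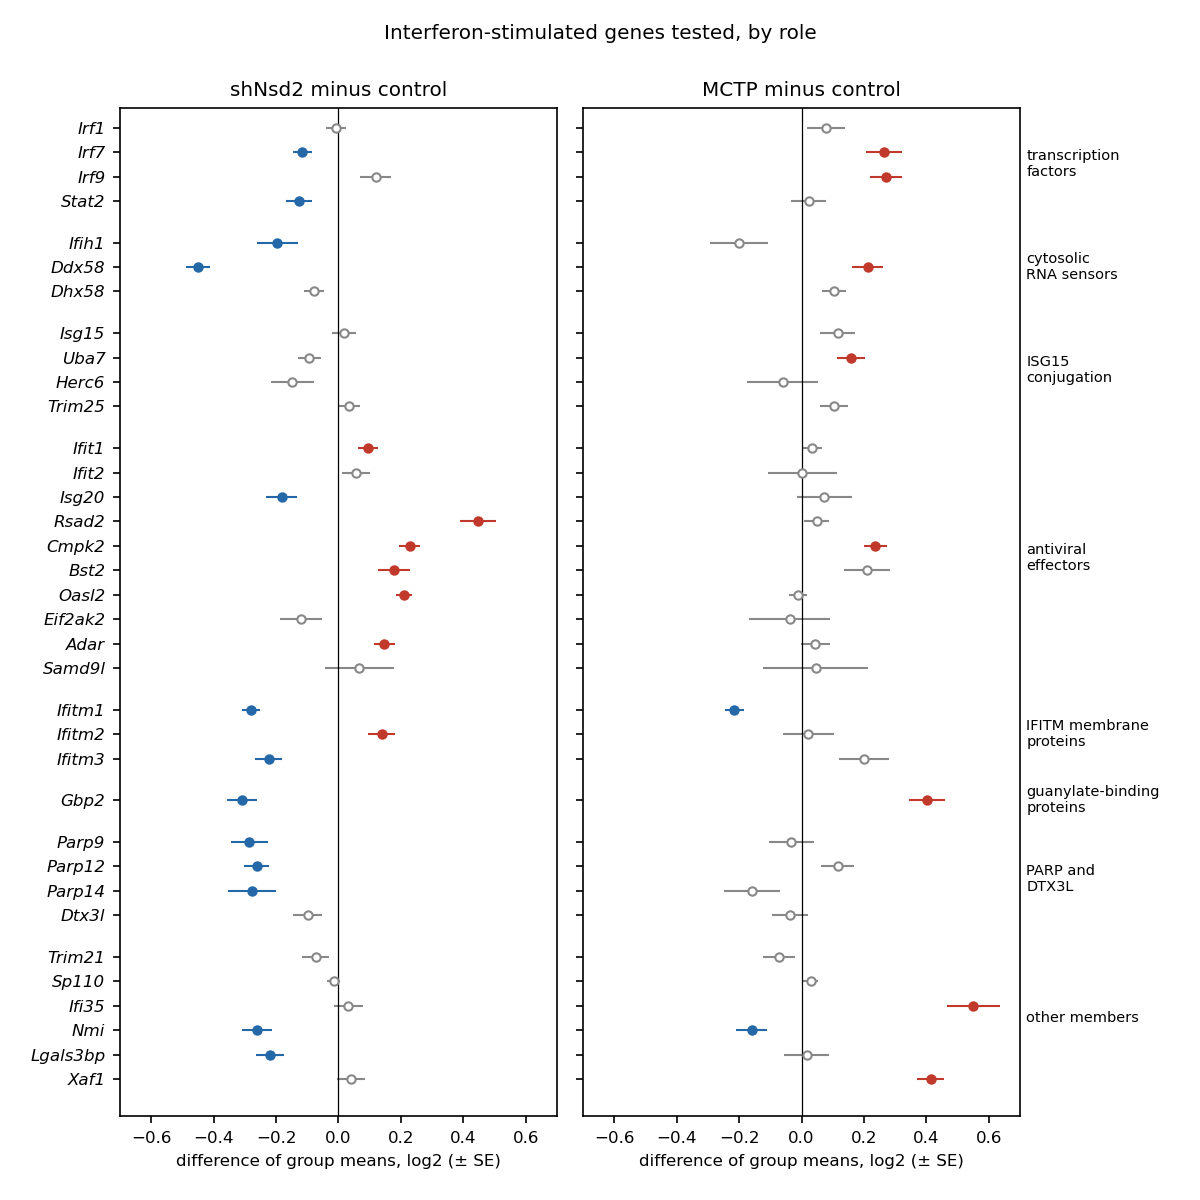
Difference of group means (log2, bars are ± SE, 3 libraries a group) for the 35 interferon-stimulated genes tested, grouped by role, with shNsd2 minus control on the left and MCTP minus control on the right. Filled red points are genes that rose, filled blue points genes that fell and open grey points genes that were not called.

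Library by library, the median of the 35 genes relative to their control means was 0.01, 0.00 and 0.01 in the control libraries, -0.06, -0.07 and -0.04 in shNsd2 and 0.08, 0.04 and 0.06 in MCTP. All 3 shNsd2 libraries lay below all control libraries and all 3 MCTP libraries above them, while the median of all genes stayed between -0.01 and 0.01 in every library. The shNsd2 libraries held 11, 10 and 10 of the 35 genes above every control library (31.4%, 28.6% and 28.6%, beside 37.1%, 37.0% and 39.5% of all genes tested) and 20, 20 and 19 below (57.1%, 57.1% and 54.3%, beside 39.9%, 39.6% and 35.5%). The MCTP libraries held 21, 18 and 22 above (60%, 51.4% and 62.9%, beside 43.1%, 33.7% and 44%) and 10, 8 and 10 below (28.6%, 22.9% and 28.6%, beside 40.5%, 39% and 44.1%).

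The 4 transcription factors of the list carry the interferon signal into the nucleus or amplify it. Of the 4, 2 fell in shNsd2 (Stat2 and Irf7) and 2 rose in MCTP (Irf7 and Irf9), joined by Irf1 without MCTP replicate 2. Counts by role are of few genes and are to be read beside the shares of all genes tested, 23.1% risen and 24.8% fallen in shNsd2 and 18.0% risen and 17.2% fallen in MCTP. Counts without MCTP replicate 2 or after the GC correction are to be read beside the larger shares of all genes called in MCTP under those settings, 60.4% and 45.6%. Of the 2 falls 1 was kept without control replicate 1 or 3 or shNsd2 replicate 1, and none without shNsd2 replicate 2. Irf7, the factor that amplifies interferon transcription, read 4.91, 4.90 and 4.90 in control, 4.84, 4.76 and 4.76 in shNsd2 and 5.14, 5.06 and 5.31 in MCTP. Its 3 groups did not overlap, with shNsd2 lowest and MCTP highest. Irf7 fell by 0.12 in shNsd2 (SE 0.03, adjusted p = 0.0122), a call lost without shNsd2 replicate 2 (adjusted p = 0.0539) and when all 9 libraries entered 1 fit (adjusted p = 0.127). It rose by 0.26 in MCTP (SE 0.06, adjusted p = 0.0128), or by 0.17 after the GC correction (adjusted p = 0.0157), and shNsd2 against MCTP gave -0.38 (SE 0.06, adjusted p = 0.00266).

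Irf9, the DNA-binding partner of STAT2, read 8.09, 8.15 and 8.10 in control, 8.15, 8.26 and 8.30 in shNsd2 and 8.36, 8.39 and 8.42 in MCTP. Every MCTP library exceeded the other 6, and the lowest shNsd2 library lay within the control range. Irf9 rose by 0.27 in MCTP (SE 0.05, adjusted p = 0.0069) and differed by 0.12 in shNsd2 (SE 0.05, adjusted p = 0.0782), a difference called without shNsd2 replicate 1 (adjusted p = 0.0342), after the GC correction (0.0477), with centring (0.0444) and with quantile normalization (0.0306). The direct difference of shNsd2 and MCTP was -0.15 for Irf9 (SE 0.06, adjusted p = 0.0632), and it was called without MCTP replicate 2 (adjusted p = 0.0428), with all 9 libraries in 1 fit (0.0297), with centring (0.0477) and without a mean-variance trend (0.0497).

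Stat2, the STAT protein specific to type I and type III interferon, read 9.34, 9.29 and 9.33 in control, 9.21, 9.15 and 9.22 in shNsd2 and 9.41, 9.29 and 9.33 in MCTP. The shNsd2 libraries were below all others, and the MCTP and control libraries overlapped. Stat2 fell by 0.13 in shNsd2 (SE 0.04, adjusted p = 0.0306), but this call was lost without control replicate 1 (adjusted p = 0.0547), control replicate 3 (0.0812), shNsd2 replicate 1 (0.0708) or shNsd2 replicate 2 (0.138), with all 9 libraries in 1 fit (0.0582), and under either centring (0.0548) or quantile normalization (0.0513). In MCTP Stat2 differed by 0.02 (SE 0.06, adjusted p = 0.762), and against MCTP it differed by -0.15 in shNsd2 (SE 0.05, adjusted p = 0.0536), which was called without MCTP replicate 2 (adjusted p = 0.0124), after the GC correction (0.04), with all 9 libraries in 1 fit (0.023), with centring (0.0485), with quantile normalization (0.0485) and without a mean-variance trend (0.0387).

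Irf1, a factor induced mainly by interferon gamma, was the only well expressed gene of the 4 and read 10.64, 10.65 and 10.68 in control, 10.63, 10.67 and 10.64 in shNsd2 and 10.78, 10.62 and 10.81 in MCTP. Control and shNsd2 overlapped throughout, and MCTP replicate 2 was the lowest of the 9 libraries while the other 2 MCTP libraries were the highest. Irf1 differed by -0.01 in shNsd2 (SE 0.03, adjusted p = 0.865) and by 0.08 in MCTP (SE 0.06, adjusted p = 0.341). Without MCTP replicate 2 the MCTP difference was 0.14 (adjusted p = 0.0283), and shNsd2 against MCTP moved from -0.09 (adjusted p = 0.276) to -0.14 (adjusted p = 0.0115).

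Of the RNA sensors, Ddx58, Ifih1 and Dhx58 were tested, and 2 of the 3 fell in shNsd2 while 1 rose in MCTP, or 2 rose and 1 fell without MCTP replicate 2. Ddx58, which encodes the sensor RIG-I, read 9.88, 9.90 and 9.87 in control, 9.40, 9.41 and 9.48 in shNsd2 and 10.14, 10.09 and 10.05 in MCTP. The groups were fully separate, again with shNsd2 lowest and MCTP highest. Ddx58 fell by 0.45 in shNsd2 (SE 0.04, adjusted p = 3.96e-05). It rose by 0.21 in MCTP (SE 0.05, adjusted p = 0.016), a call lost without any 1 control replicate or MCTP replicate 1 (adjusted p from 0.0589 to 0.0778). The direct difference of shNsd2 and MCTP in Ddx58 was -0.66 (SE 0.05, adjusted p = 0.000101).

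Ifih1, which encodes the sensor MDA5, read 8.22, 8.17 and 8.10 in control, 7.94, 7.86 and 8.09 in shNsd2 and 7.88, 8.17 and 7.84 in MCTP. All shNsd2 libraries were below control, replicate 3 by less than 0.01, while MCTP replicate 2 lay within the control range and the other 2 MCTP libraries below it. Ifih1 fell by 0.20 in shNsd2 (SE 0.06, adjusted p = 0.0329), a call lost without control replicate 1 or 2 or shNsd2 replicate 1 or 2 (adjusted p from 0.0639 to 0.127), with all 9 libraries in 1 fit (0.125) and under quantile normalization (0.0555). In MCTP it differed by -0.20 (SE 0.09, adjusted p = 0.12), and without MCTP replicate 2 by -0.30 (adjusted p = 0.00167). Dhx58, which encodes the regulator LGP2, was not called against control in either group (-0.08 and 0.10), though shNsd2 was called after the GC correction (-0.12, adjusted p = 0.0249) and MCTP without MCTP replicate 2 (adjusted p = 0.0468), with all 9 libraries in 1 fit (0.0438) and with centring (0.038), and was lower in shNsd2 than in MCTP by -0.18 (SE 0.04, adjusted p = 0.0108), a call lost under quantile normalization (-0.12, adjusted p = 0.0722).

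The ISG15 genes encode the ubiquitin-like modifier and enzymes that attach or remove it. None of the 4 tested was called in shNsd2 with all libraries and no GC correction. In MCTP 1 of the 4 rose, and without MCTP replicate 2 a pair rose and 1 fell. Isg15 itself read 6.26, 6.27 and 6.29 in control, 6.33, 6.23 and 6.32 in shNsd2 and 6.46, 6.27 and 6.43 in MCTP. The groups overlapped, with the highest values in MCTP replicates 1 and 3. Isg15 differed by 0.02 in shNsd2 (SE 0.04, adjusted p = 0.714) and by 0.12 in MCTP (SE 0.06, adjusted p = 0.135), and the MCTP difference was 0.17 without MCTP replicate 2 (adjusted p = 0.00794). The direct difference of shNsd2 and MCTP was -0.10 for Isg15 (adjusted p = 0.214), and this was called without MCTP replicate 2 (adjusted p = 0.0146).

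Uba7, the enzyme that activates ISG15, read 6.06, 5.98 and 6.04 in control, 5.90, 5.94 and 5.96 in shNsd2 and 6.24, 6.15 and 6.17 in MCTP. The 3 groups did not overlap. Uba7 rose by 0.16 in MCTP (SE 0.04, adjusted p = 0.0285), a call lost when any library other than MCTP replicate 2 was left out (adjusted p from 0.0568 to 0.111), after the GC correction (0.07, adjusted p = 0.279) and under quantile normalization (adjusted p = 0.0868), and it differed by -0.09 in shNsd2 (adjusted p = 0.0634), which was called without control replicate 2 (adjusted p = 0.0453) and after the GC correction (-0.14, adjusted p = 0.0223). Trim25, a ubiquitin ligase of the RIG-I pathway, was not called in any of the 3 comparisons and was among the more abundant genes at 11.35 to 11.52. Herc6, the mouse ligase for ISG15, was called in MCTP only without MCTP replicate 2 (-0.19, adjusted p = 0.0346) or after a correction for GC content, which turned its direction (0.15, adjusted p = 0.0288). Usp18, the protease that removes ISG15, lay under the floor at 3.45 to 3.62.

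Among 10 antiviral effectors tested, 6 rose in shNsd2 and 1 fell (60% and 10%, beside 23.1% and 24.8% of all genes), and in MCTP 1 rose (10%, beside 18.0%). Without control replicate 2, 4 rose and none fell in shNsd2. The MCTP count was 3 without MCTP replicate 2 (60.4% of all genes called) and 5 after the GC correction (45.6%). Rsad2, which encodes viperin, an enzyme that makes a chain-terminating nucleotide, read 5.61, 5.61 and 5.54 in control, 5.95, 5.98 and 6.17 in shNsd2 and 5.68, 5.61 and 5.62 in MCTP. The shNsd2 libraries were above the other 6, which lay close together. Rsad2 rose by 0.45 in shNsd2 (SE 0.06, adjusted p = 0.000309). In MCTP the difference was 0.05 (SE 0.04, adjusted p = 0.349), or 0.16 after the GC correction (adjusted p = 0.0375), and shNsd2 exceeded MCTP by 0.40 (SE 0.06, adjusted p = 0.00205).

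Cmpk2, a mitochondrial nucleotide kinase whose gene lies beside Rsad2, read 5.88, 5.83 and 5.88 in control, 6.10, 6.06 and 6.12 in shNsd2 and 6.13, 6.08 and 6.09 in MCTP. Both treated groups were above every control library and overlapped each other. Cmpk2 rose by 0.23 in shNsd2 (SE 0.03, adjusted p = 0.00064) and by 0.24 in MCTP (SE 0.04, adjusted p = 0.00342). The direct difference was -0.01 (SE 0.04, adjusted p = 0.865).

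Oasl2, of the oligoadenylate synthetase family, read 4.17, 4.18 and 4.22 in control, 4.38, 4.40 and 4.42 in shNsd2 and 4.16, 4.16 and 4.22 in MCTP. Its shNsd2 libraries were the highest, and control and MCTP overlapped. Oasl2 rose by 0.21 in shNsd2 (SE 0.02, adjusted p = 0.000216) and exceeded MCTP by 0.22 (SE 0.03, adjusted p = 0.000704), while MCTP differed from control by -0.01 (SE 0.03, adjusted p = 0.764). Its paralog Oas1a lay under the floor at 2.69 to 2.88. Reads of such paralogs can map to more than 1 of them, so their separate values are uncertain.

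Bst2, which encodes tetherin and holds budding virus at the cell surface, read 8.77, 8.75 and 8.91 in control, 9.0, 8.97 and 8.99 in shNsd2 and 9.03, 8.92 and 9.12 in MCTP. All 6 treated libraries exceeded all control libraries, though MCTP replicate 2 did so only narrowly (8.917 beside 8.912 in control replicate 3). Bst2 rose by 0.18 in shNsd2 (SE 0.05, adjusted p = 0.0181), a call lost without control replicate 2 (adjusted p = 0.0728) or shNsd2 replicate 1 (adjusted p = 0.0616). It differed by 0.21 in MCTP (SE 0.07, adjusted p = 0.0584), which was called without MCTP replicate 2 (adjusted p = 0.00663), with all 9 libraries in 1 fit (0.0212) and with centring (0.047).

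Adar, the enzyme that edits adenosine in double-stranded RNA, read 10.80, 10.80 and 10.82 in control, 10.97, 10.97 and 10.92 in shNsd2 and 10.88, 10.81 and 10.87 in MCTP. The shNsd2 libraries were above the other 6, and MCTP replicate 2 lay within the control range. Adar rose by 0.15 in shNsd2 (SE 0.03, adjusted p = 0.0064), and MCTP differed by 0.04 (SE 0.05, adjusted p = 0.472). The 2 further effectors, Eif2ak2, the kinase PKR, and Samd9l, were not called, and both had their highest MCTP value in replicate 2 (10.07 beside 9.68 and 9.57 for Eif2ak2). Samd9l differed by 0.05 in MCTP (adjusted p = 0.847), and by 0.26 after the GC correction (adjusted p = 0.0273). Eif2ak2 was called in shNsd2 only without control replicate 3 (-0.18, adjusted p = 0.0464).

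The Ifit genes encode proteins that bind viral RNA and limit its translation. Ifit1 read 4.34, 4.40 and 4.40 in control, 4.43, 4.47 and 4.52 in shNsd2 and 4.37, 4.44 and 4.43 in MCTP. All shNsd2 libraries lay above control by a narrow margin, and Ifit1 rose by 0.09 in shNsd2 (SE 0.03, adjusted p = 0.0317), a call lost without control replicate 1 or 2 or shNsd2 replicate 2 or 3 (adjusted p from 0.0538 to 0.0998) and without a mean-variance trend (0.0712). Ifit2 read 6.58, 6.52 and 6.42 in control, 6.56, 6.56 and 6.57 in shNsd2 and 6.37, 6.78 and 6.38 in MCTP. Its groups overlapped, and MCTP replicate 2 was the highest of the 9 libraries while the other 2 MCTP libraries were the lowest. Ifit2 differed from control by 0.06 in shNsd2 (SE 0.05, adjusted p = 0.342) and by 0.00 in MCTP (SE 0.11, adjusted p = 0.985), and without MCTP replicate 2 the adjusted p of shNsd2 against MCTP went from 0.709 to 0.00261 (difference 0.19). After the GC correction the differences in MCTP were 0.17 for Ifit2 (adjusted p = 0.0464) and 0.17 for Ifit1 (adjusted p = 0.0465), and those in shNsd2 were 0.11 for Ifit2 (adjusted p = 0.0311) and 0.16 for Ifit1, also called. Ifit3 lay under the floor at 2.74 to 2.86, and the 3 neighbouring Ifit genes may share reads.

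Isg20, the effector that fell, read 9.22, 9.34 and 9.37 in control, 9.10, 9.13 and 9.16 in shNsd2 and 9.43, 9.21 and 9.52 in MCTP. Every shNsd2 library was below the other 6. Isg20 fell by 0.18 in shNsd2 (SE 0.05, adjusted p = 0.0137), a call lost without control replicate 2 (adjusted p = 0.0548), control replicate 3 (0.0503) or shNsd2 replicate 1 (0.0564) and with all 9 libraries in 1 fit (0.0927). In MCTP Isg20 differed by 0.07 (SE 0.09, adjusted p = 0.533), by 0.16 without MCTP replicate 2 (adjusted p = 0.0468) and by -0.03 after the GC correction, which was not called. Against MCTP it differed by -0.25 (SE 0.08, adjusted p = 0.0382), a call kept without MCTP replicate 2 but not without any 1 of the other 5 libraries (adjusted p from 0.0877 to 0.132).

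**Figure D3:**
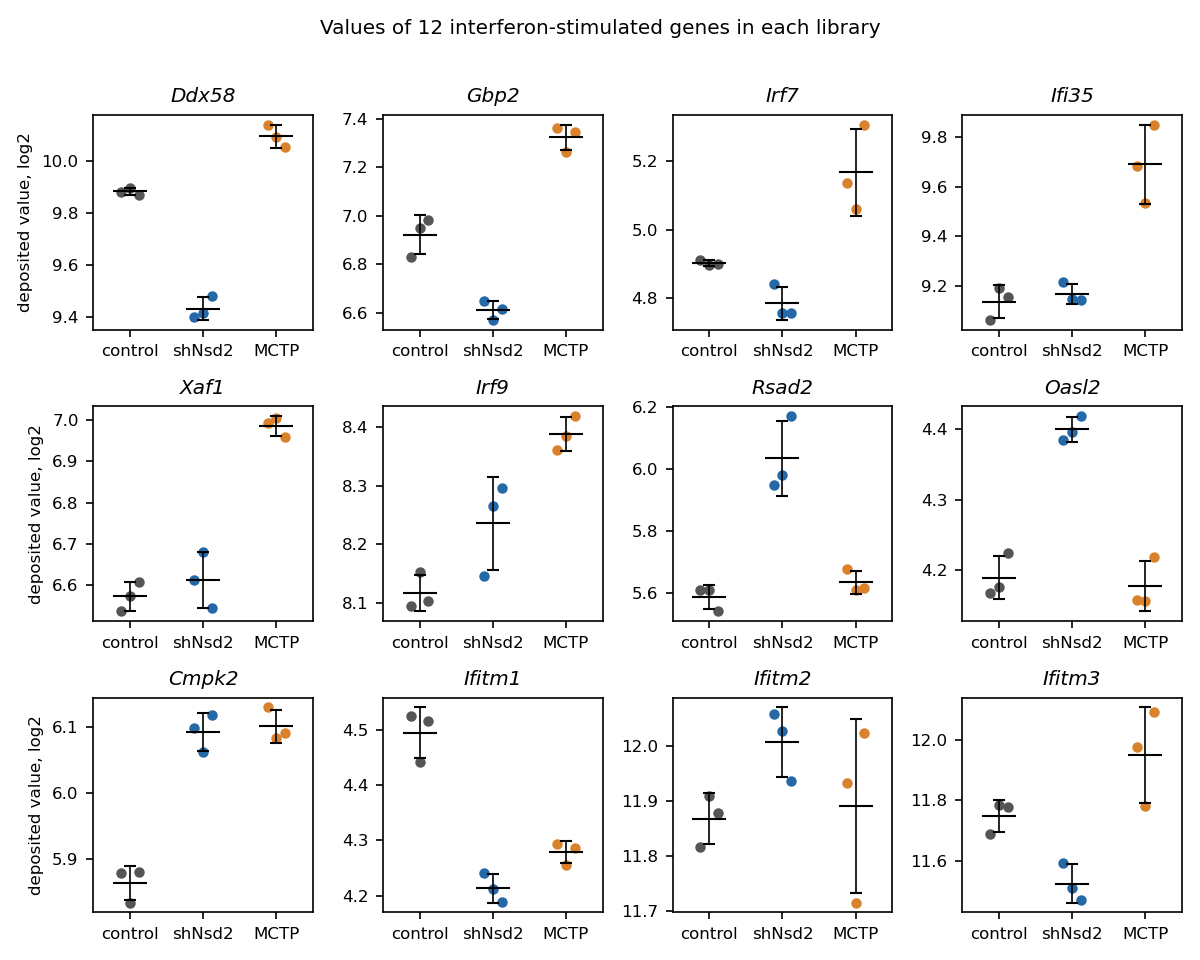
Deposited log2 value of 12 interferon-stimulated genes in each of the 9 libraries, with points for libraries and bars for the group mean ± SD (n = 3). Ddx58, Gbp2 and Irf7 are lowest in shNsd2 and highest in MCTP, Rsad2 and Oasl2 are highest in shNsd2, and Ifi35 and Xaf1 are highest in MCTP.

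The IFITM proteins sit in cell and endosome membranes and hinder the fusion of virus with them. Ifitm1 read 4.52, 4.44 and 4.52 in control, 4.24, 4.21 and 4.19 in shNsd2 and 4.29, 4.26 and 4.29 in MCTP. All 6 treated libraries were below all control libraries, with shNsd2 the lower of the treated groups. Ifitm1 fell by 0.28 in shNsd2 (SE 0.03, adjusted p = 0.000113) and by 0.22 in MCTP (SE 0.03, adjusted p = 0.00228). Its direct difference was -0.06 (SE 0.02, adjusted p = 0.065), which was called without MCTP replicate 2 (adjusted p = 0.0393).

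Ifitm2 read 11.82, 11.91 and 11.88 in control, 12.06, 12.03 and 11.94 in shNsd2 and 11.93, 11.72 and 12.02 in MCTP. The shNsd2 libraries lay above control, and the MCTP libraries spread on both sides of it, with replicate 2 the lowest of all 9. Ifitm2 rose by 0.14 in shNsd2 (SE 0.04, adjusted p = 0.025), a call lost without control replicate 3 (adjusted p = 0.0524), shNsd2 replicate 1 (0.103) or shNsd2 replicate 2 (0.0925) and with all 9 libraries in 1 fit (0.169). In MCTP it differed by 0.02 (SE 0.08, adjusted p = 0.845).

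Ifitm3 read 11.69, 11.78 and 11.78 in control, 11.59, 11.51 and 11.47 in shNsd2 and 11.97, 11.78 and 12.09 in MCTP. It was lowest in shNsd2, and MCTP replicate 2 lay at the top of the control range with the other 2 MCTP libraries above it. Ifitm3 fell by 0.22 in shNsd2 (SE 0.04, adjusted p = 0.003) and differed by 0.20 in MCTP (SE 0.08, adjusted p = 0.0881), or by 0.28 without MCTP replicate 2 (adjusted p = 0.00132), and was also called with all 9 libraries in 1 fit (0.0483) and with quantile normalization (0.0416). The direct difference was -0.42 (SE 0.08, adjusted p = 0.00547). The 3 Ifitm genes thus differed in direction in shNsd2, under each scaling tried, but their sequences are alike and shared reads make their separate values uncertain.

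Gbp2, a guanylate-binding GTPase that attacks the vacuoles of intracellular pathogens, read 6.83, 6.95 and 6.98 in control, 6.65, 6.57 and 6.61 in shNsd2 and 7.36, 7.26 and 7.34 in MCTP. The 3 groups were fully separate. Gbp2 fell by 0.31 in shNsd2 (SE 0.05, adjusted p = 0.000872) and rose by 0.40 in MCTP (SE 0.06, adjusted p = 0.00238). The direct difference of -0.71 (SE 0.05, adjusted p = 5.56e-05) was the lowest among the 35 genes tested. Reads shared with other Gbp genes were not examined.

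The PARP genes of the list encode ADP-ribosyltransferases, and Dtx3l encodes the ubiquitin ligase that partners PARP9. Of these 4 genes 3 fell in shNsd2 and none was called in MCTP with all libraries, while without MCTP replicate 2 Parp12 rose and Parp14 fell. Parp9 read 9.30, 9.21 and 9.10 in control, 8.86, 8.89 and 9.0 in shNsd2 and 9.14, 9.26 and 9.10 in MCTP. The shNsd2 libraries were below the other 6, and control and MCTP overlapped. Parp9 fell by 0.29 in shNsd2 (SE 0.06, adjusted p = 0.00427), and MCTP differed by -0.03 (SE 0.07, adjusted p = 0.736). Against MCTP, shNsd2 was lower by -0.25 (SE 0.06, adjusted p = 0.0166), a call lost without MCTP replicate 1 (adjusted p = 0.0516), shNsd2 replicate 1 (0.0716) or shNsd2 replicate 2 (0.0686).

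Parp12 read 9.95, 9.95 and 9.94 in control, 9.64, 9.68 and 9.74 in shNsd2 and 10.10, 9.99 and 10.11 in MCTP. Its groups were separate, in the order shNsd2, control, MCTP. Parp12 fell by 0.26 in shNsd2 (SE 0.04, adjusted p = 0.000785), differed by 0.12 in MCTP (adjusted p = 0.12, or 0.0206 without MCTP replicate 2) and was lower in shNsd2 than in MCTP by -0.38 (SE 0.05, adjusted p = 0.00166).

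Parp14 read 8.79, 8.67 and 8.56 in control, 8.28, 8.37 and 8.54 in shNsd2 and 8.49, 8.67 and 8.39 in MCTP. The highest shNsd2 library came close to the lowest control library, and MCTP overlapped both groups. Parp14 fell by 0.28 in shNsd2 (SE 0.08, adjusted p = 0.0158), a call lost without shNsd2 replicate 1 (adjusted p = 0.064) or shNsd2 replicate 2 (adjusted p = 0.0524). In MCTP it differed by -0.16 (SE 0.09, adjusted p = 0.196), and by -0.24 without MCTP replicate 2 (adjusted p = 0.0175). Dtx3l, whose gene overlaps Parp9, differed by -0.10 in shNsd2 (SE 0.05, adjusted p = 0.108) and by -0.04 in MCTP, and reads from the overlap may count for either gene.

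The remaining genes have mixed roles. Ifi35, a leucine-zipper protein that binds NMI, read 9.07, 9.19 and 9.16 in control, 9.22, 9.15 and 9.14 in shNsd2 and 9.68, 9.53 and 9.85 in MCTP. The MCTP libraries were above the other 6, and control and shNsd2 overlapped. Ifi35 rose by 0.55 in MCTP (SE 0.09, adjusted p = 0.00318), differed by 0.03 in shNsd2 (SE 0.05, adjusted p = 0.608) and was lower in shNsd2 than in MCTP by -0.52 (SE 0.08, adjusted p = 0.00229).

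Xaf1, which encodes a pro-apoptotic zinc-finger protein, read 6.54, 6.57 and 6.61 in control, 6.61, 6.68 and 6.54 in shNsd2 and 6.99, 7.01 and 6.96 in MCTP. Again the MCTP libraries stood above the other 6. Xaf1 rose by 0.41 in MCTP (SE 0.04, adjusted p = 0.000644), differed by 0.04 in shNsd2 (SE 0.04, adjusted p = 0.484) and was lower in shNsd2 than in MCTP by -0.37 (SE 0.05, adjusted p = 0.000985).

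Nmi, the partner of IFI35, read 7.11, 7.08 and 7.03 in control, 6.76, 6.78 and 6.90 in shNsd2 and 6.88, 6.90 and 6.96 in MCTP. All 6 treated libraries were below control. Nmi fell by 0.26 in shNsd2 (SE 0.05, adjusted p = 0.00235). It fell by 0.16 in MCTP (SE 0.05, adjusted p = 0.0383), a call lost without any 1 control replicate or MCTP replicate 1 (adjusted p from 0.0681 to 0.138). The call was also lost after the GC correction (-0.06, adjusted p = 0.431) and when libraries were centred on their medians (-0.13, adjusted p = 0.0888).

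Lgals3bp, a secreted glycoprotein, read 13.90, 13.98 and 14.03 in control, 13.79, 13.77 and 13.69 in shNsd2 and 14.04, 13.86 and 14.06 in MCTP. The shNsd2 libraries were the lowest, and control and MCTP overlapped. Lgals3bp fell by 0.22 in shNsd2 (SE 0.05, adjusted p = 0.00435) and was lower there than in MCTP by -0.24 (SE 0.07, adjusted p = 0.0252), a call kept without MCTP replicate 2 but not without any 1 of the other 5 libraries (adjusted p from 0.0591 to 0.0997). Trim21, an antibody receptor of the cytosol, and Sp110, a nuclear body protein, were not called in any of the 3 comparisons.

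The table also holds Ifi27l1, whose gene identifier the annotation gives to Ifi27. It was not counted among the 44 and is given because of that renaming, after its values were seen. Ifi27l1 read 8.98, 9.03 and 8.95 in control, 8.64, 8.65 and 8.64 in shNsd2 and 9.69, 9.52 and 9.81 in MCTP. The 3 groups were fully separate, with shNsd2 lowest and MCTP highest. It fell by 0.34 in shNsd2 (SE 0.04, adjusted p = 0.000204) and rose by 0.69 in MCTP (SE 0.08, adjusted p = 0.000856). The direct difference of -1.03 (SE 0.08, adjusted p = 8.99e-05) was larger than that of any of the 35 genes.

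Levels of different genes were compared per kilobase of exon, as the mean over the 9 libraries on the log2 scale. On that scale Ifitm2 (12.53), Lgals3bp (12.39) and Ifitm3 (12.30) stood above the rest, followed by Bst2 (9.09), Trim25 (8.90), Irf1 (8.69), Ifi35 (8.54) and Isg20 (8.38). The lowest of the genes tested were Sp110 (1.38) and Oasl2 (1.58), then Ifit1 (3.01) and Irf7 (3.04). Of the transcription factors, Stat2 had a level per kilobase of 6.72 and Irf9 of 5.82. Among RNA sensors Ddx58 (6.98) lay above Ifih1, and Dhx58 (3.65) below it. The 9 well expressed genes, by their value without regard to length, were Irf1, Ddx58, Trim25, Eif2ak2, Adar, Ifitm2, Ifitm3, Parp12 and Lgals3bp.

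Beyond the 44 genes, 101 further genes of the interferon pathway were listed, of which 82 had a row and 78 were tested. Counts of these lists are to be read beside all genes tested, of which 23.1% rose and 24.8% fell in shNsd2, 18.0% rose and 17.2% fell in MCTP, and 20.6% were higher and 22.6% lower in shNsd2 than in MCTP. None of the 10 interferon ligands listed, among them Ifnb1 and Ifng, had a row.

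Of the 6 interferon receptor genes, 3 fell in shNsd2 and 1 rose in MCTP, where 2 rose without MCTP replicate 2 and none without any 1 of the other 5 libraries. Ifnar1, a subunit of the type I receptor, read 11.25, 11.20 and 11.22 in control, 11.06, 11.10 and 11.10 in shNsd2 and 11.21, 11.12 and 11.15 in MCTP, so that shNsd2 was lowest. Ifnar1 fell by 0.14 in shNsd2 (SE 0.03, adjusted p = 0.00948) and its partner Ifnar2 by 0.20 (SE 0.04, adjusted p = 0.00297). Ifngr2, a subunit of the interferon gamma receptor, read 10.06, 10.12 and 10.05 in control, 9.95, 9.98 and 9.96 in shNsd2 and 10.28, 10.21 and 10.33 in MCTP, with separate groups. It fell by 0.12 in shNsd2 (adjusted p = 0.0272) and rose by 0.19 in MCTP (adjusted p = 0.0293), but the first call was lost without control replicate 2 or any 1 shNsd2 replicate (adjusted p from 0.0515 to 0.112) and the second without any library other than MCTP replicate 2 (adjusted p from 0.0742 to 0.105). The direct difference of Ifngr2, -0.31 (SE 0.05, adjusted p = 0.0024), was called with any 1 library left out.

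The kinases JAK1, JAK2 and TYK2 pass the signal on from these receptors. Jak1 fell by 0.19 in shNsd2 (SE 0.03, adjusted p = 0.00173). Jak2 read 9.72, 9.56 and 9.51 in control, 9.16, 9.11 and 9.29 in shNsd2 and 9.20, 9.58 and 9.07 in MCTP. It fell by 0.41 in shNsd2 (SE 0.07, adjusted p = 0.00114) and differed by -0.32 in MCTP (adjusted p = 0.0889), where MCTP replicate 2 alone lay within the control range and the adjusted p without it was 0.000464. Tyk2 rose by 0.27 in MCTP (SE 0.06, adjusted p = 0.0111), a call lost without MCTP replicate 1 (adjusted p = 0.0568) or control replicate 2 (adjusted p = 0.0546), and by 0.17 after the GC correction.

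Of 11 negative regulators of interferon signalling, 3 rose and 4 fell in shNsd2, and 1 rose and 4 fell in MCTP. The falls in shNsd2 numbered 2 without control replicate 2 or shNsd2 replicate 2, those in MCTP 2 without control replicate 2 or 3, and without MCTP replicate 2 the counts in MCTP were 2 and 4. Irf2, a repressor that competes with activating IRF proteins, fell by 0.26 in shNsd2 (SE 0.04, adjusted p = 0.000953), and Socs1, an inhibitor of JAK kinases, rose by 0.19 (SE 0.04, adjusted p = 0.0031), or by 0.12 after the GC correction. In MCTP the co-repressor Irf2bp2 fell by 0.37 (SE 0.06, adjusted p = 0.00374). The STAT inhibitor Pias3 rose by 0.32 in MCTP (SE 0.05, adjusted p = 0.00457).

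Of 14 nucleic acid sensing genes tested, 6 rose and 1 fell in shNsd2 (50% called, beside 47.8% of all genes), and 4 rose in MCTP (28.6%, beside 35.2%). The rises in shNsd2 numbered 3 without shNsd2 replicate 1 or 2. In MCTP 6 rose and 3 fell without MCTP replicate 2, where 60.4% of all genes were called, and 2 rose without MCTP replicate 1. Tlr3, the endosomal receptor for double-stranded RNA, fell by 0.40 in shNsd2 (SE 0.06, adjusted p = 0.000567). Samhd1, which degrades deoxynucleotides, rose by 0.24 in shNsd2 (SE 0.03, adjusted p = 0.000411) and by 0.24 in MCTP (SE 0.05, adjusted p = 0.00672). Trex1, a DNA exonuclease that limits sensing of DNA, rose by 0.50 in MCTP (SE 0.11, adjusted p = 0.0123), a call lost without MCTP replicate 1 (adjusted p = 0.0561).

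Of 42 other interferon-stimulated genes tested, 7 rose and 18 fell in shNsd2 (16.7% and 42.9%), 12 rose and 6 fell in MCTP (28.6% and 14.3%), and 10 were higher and 22 lower in shNsd2 than in MCTP (23.8% and 52.4%). With all 9 libraries in 1 fit 6 rose and 8 fell in shNsd2, where 35.4% of all genes were called. In MCTP 17 rose and 8 fell without MCTP replicate 2, and 20 rose and 8 fell after the GC correction, where 60.4% and 45.6% of all genes were called. Without control replicate 1, 2 or 3 the MCTP counts were 9 and 4, 7 and 3, and 8 and 3, against 7 and 3 without MCTP replicate 1 and 9 and 4 without MCTP replicate 3. The 10 genes higher in shNsd2 than in MCTP numbered 5 without MCTP replicate 1 or shNsd2 replicate 1 or 3, and 6 without shNsd2 replicate 2. Gbp4, a further guanylate-binding GTPase, read 7.94, 7.70 and 7.84 in control, 7.22, 7.19 and 7.23 in shNsd2 and 8.07, 8.39 and 8.09 in MCTP. Its groups were separate in the same order as those of Gbp2. Gbp4 fell by 0.61 in shNsd2 (SE 0.06, adjusted p = 7e-05) and differed from MCTP by -0.96 (SE 0.09, adjusted p = 0.000201). It rose by 0.35 in MCTP (SE 0.10, adjusted p = 0.0306), a call lost without MCTP replicate 1 (adjusted p = 0.0567), control replicate 2 (0.106) or control replicate 3 (0.0794). Oasl1, a paralog of Oasl2, rose by 0.36 in shNsd2 (SE 0.04, adjusted p = 0.00021), and Ifi204, a DNA-binding protein of the pyrin family, fell by 0.49 (SE 0.05, adjusted p = 0.000105). Pml, which builds nuclear bodies, rose by 0.58 in MCTP (SE 0.07, adjusted p = 0.000809) and by 0.25 in shNsd2 (SE 0.04, adjusted p = 0.000695). Ifi203 fell by 0.52 in MCTP (SE 0.11, adjusted p = 0.0115), a call lost without MCTP replicate 1 (adjusted p = 0.0578), and by 0.30 after the GC correction. Pnpt1, a mitochondrial RNA-processing enzyme, fell by 0.39 in MCTP (SE 0.11, adjusted p = 0.0328), or by 0.18 after the GC correction, and its call was lost without any library other than MCTP replicate 2 (adjusted p from 0.0691 to 0.128).

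Several of the 44 genes are neighbours in the genome (build GRCm38). Rsad2 (chr12:26442746-26456452) and Cmpk2 (chr12:26469204-26479837) lie 12752 bases apart on opposite strands, and both rose in shNsd2, while in MCTP Cmpk2 rose and Rsad2 was called only after the GC correction. Parp14, Dtx3l and Parp9 lie together on chromosome 16, where Dtx3l (chr16:35926511-35939151) and Parp9 (chr16:35938470-35972605) overlap. The Ifitm genes lie together on chromosome 7 and the Ifit genes on chromosome 19.

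Promoters were read from RefSeq, from 250 bases before to 50 bases after each gene's start (GRCm38.p6), for 37 of the 44 genes, without Usp18, Dhx58, Parp9, Parp14, Mx2, Rtp4 and Ifi27. The interferon-stimulated response element was searched on both strands as GAAA, any 2 bases, GAAA. It was found in 16 of the 37 promoters (43.2%), beside 1079 of 27025 promoters of all symbols (3.99%). In the part before the start alone, 11 of the 37 held it (29.7%), beside 3.46%. The gamma-activated site, searched as TTC, any 3 bases, GAA, was found in 9 of the 37 (24.3%), beside 9.55% of all. In the part before the start alone, 6 of the 37 held this site (16.2%), beside 8.13% of all. A match describes the letters of the window, not a bound site.

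Matches were found in promoters of genes that rose and of genes that fell. Ddx58 and Gbp2, lowest in shNsd2 and highest in MCTP, held the response element, as did Rsad2, which rose in shNsd2, and Isg15, which was not called. No match to the response element was found in the windows of Irf7, Irf9, Cmpk2, Oasl2, Ifi35, Xaf1, Nmi or Ifitm1, and nothing follows from that about a factor. The sequences of 4 promoters are shown as examples of genes that fell, rose or were not called in shNsd2 and hold the same element, with the matches in capitals and each read 5′ to 3′ on the strand of the gene. Their locations are chr3:142620413-142620712 on the plus strand for Gbp2, and on the minus strand chr4:40239776-40240075 for Ddx58, chr12:26456403-26456702 for Rsad2 and chr4:156200769-156201068 for Isg15, where the 3 matches overlap. The match of Ddx58 begins after the start of the gene and those of the others before it.
Gbp2: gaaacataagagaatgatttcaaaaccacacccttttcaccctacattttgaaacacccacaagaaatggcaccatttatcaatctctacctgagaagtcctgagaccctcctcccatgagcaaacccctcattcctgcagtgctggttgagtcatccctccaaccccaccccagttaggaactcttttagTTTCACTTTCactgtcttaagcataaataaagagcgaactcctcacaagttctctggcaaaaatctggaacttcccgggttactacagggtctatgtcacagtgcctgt
Ddx58: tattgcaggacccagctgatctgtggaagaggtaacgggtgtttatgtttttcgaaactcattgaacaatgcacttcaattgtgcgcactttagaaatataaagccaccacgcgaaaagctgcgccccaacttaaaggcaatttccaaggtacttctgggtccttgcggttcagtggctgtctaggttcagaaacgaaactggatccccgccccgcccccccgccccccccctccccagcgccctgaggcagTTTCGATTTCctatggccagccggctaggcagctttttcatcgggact
Rsad2: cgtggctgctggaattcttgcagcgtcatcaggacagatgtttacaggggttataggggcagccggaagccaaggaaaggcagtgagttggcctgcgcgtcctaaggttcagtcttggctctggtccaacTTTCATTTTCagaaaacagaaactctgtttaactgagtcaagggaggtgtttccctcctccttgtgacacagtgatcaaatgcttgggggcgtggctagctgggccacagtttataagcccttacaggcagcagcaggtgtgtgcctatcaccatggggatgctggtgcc
Isg15: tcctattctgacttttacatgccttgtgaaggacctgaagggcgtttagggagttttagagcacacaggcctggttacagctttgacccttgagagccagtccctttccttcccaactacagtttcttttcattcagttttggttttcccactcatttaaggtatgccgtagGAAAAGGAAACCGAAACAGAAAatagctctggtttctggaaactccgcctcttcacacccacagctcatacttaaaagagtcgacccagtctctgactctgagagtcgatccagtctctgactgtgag

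Groups of 3 libraries limit what these comparisons can show, and a gene not called is not shown to be unchanged. Interferon itself, protein and chromatin were not analysed here. Whether the MCTP compound acts through NSD2, and whether hairpin or lentivirus alone moves interferon-stimulated genes, was not tested, since it is not known which control treatment, if any, these control cells received. Libraries deviated from their group mean in ways that correlated with the GC content of genes, most in MCTP replicate 2. These deviations are of the same size as many of the differences between groups.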

How the data were processed

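The deposited table gives 1 value per gene for each of 9 libraries of NPK cells, 3 a group. The authors' values are on a log2 scale, variance-stabilised, with libraries scaled to each other. Per the labels, the authors used the mm9 build, bcl2fastq 1.8.4, TopHat, Cufflinks, DESeq and DESeq2. The table has 12 columns of values, and 3 that match no sample described here were not used. A gene was tested if 3 or more of the 6 libraries compared exceeded a floor of 3.78, the median of the lowest 10% of values. Pairs of groups were fitted with limma 3.58.1 (lmFit, eBayes with a mean-variance trend) in R 4.3.3, without a replicate block, and p-values were adjusted by Benjamini-Hochberg across every gene tested. Tables were made in Python 3.11.15 with pandas 2.3.3 and plotted with matplotlib 3.10.9. Coordinates, GC content and exon length came from GENCODE release 21 (GRCm38), which matched 12513 of 12842 genes (97.4%). Named genes were set by a rule: Nsd2, Irf1, Irf7, Irf9, Stat2 and Isg15, up to 5 largest rises and falls called in each comparison with groups that do not overlap, and paralogs. Values of the other listed genes, and Cd68, were added after they were seen. Pathway genes were named as up to 3 per list and comparison, plus Ifnar1, Ifnar2, Jak1 and Tyk2, and some listed pathway and marker genes are not reported here. The genes and lists were chosen with earlier results of these data known. Alternatives were no filter, all 9 libraries in 1 fit, a replicate block, each library left out, quantile normalization, centring on the library median, no trend, a GC correction and the part of the promoter before the start.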

Additional observations from a re-analysis of the deposited data

How the results depend on the processing

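Values of the 35 interferon-stimulated genes kept their direction under every alternative wherever they were called with all libraries. The median difference in shNsd2 against control was -0.048 with no filter, where 38 genes were tested. Over the 35 genes it was -0.062 with each library centred on its median, -0.052 after the GC correction, and -0.106 to -0.053 with 1 library left out. In MCTP against control the median was 0.079 with each library centred, 0.071 after the GC correction and 0.041 to 0.080 with 1 library left out, interferon-stimulated genes called ranged from 7 to 20 and all genes called from 2046 to 7384. Centring gave 10 risen and 1 fallen there, and the GC correction 12 risen and 1 fallen. In shNsd2 against MCTP the median was -0.124 after the GC correction and -0.124 to -0.074 with 1 library left out, and genes called ranged from 3391 to 7781.

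With a replicate block, 17, 8 and 11 of the genes were called in shNsd2 against control, MCTP against control and shNsd2 against MCTP, and 4515, 3399 and 3794 of all genes. Replicate numbers did not pair libraries: over 9 same-numbered pairs r of the deviations ran from -0.81 to 0.61.

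Signs that turned belonged to differences not called with all libraries, and only Herc6 after the GC correction was called with its sign turned. After the GC correction these were Isg15, shNsd2 against control (-0.00994), Ifi35, shNsd2 against control (-0.00595), Sp110, shNsd2 against control (0.00851), Stat2, MCTP against control (-0.0299), Adar, MCTP against control (-0.0272), Parp9, MCTP against control (0.00214), Herc6, MCTP against control (0.146), Isg20, MCTP against control (-0.0278), Eif2ak2, MCTP against control (0.0852), Ifitm2, MCTP against control (-0.0601), Dtx3l, MCTP against control (0.0346), Lgals3bp, MCTP against control (-0.0797), Bst2, shNsd2 against MCTP (0.016), Ifih1, shNsd2 against MCTP (-0.0869), Ifit1, shNsd2 against MCTP (-0.018), Ifit2, shNsd2 against MCTP (-0.0581) and Samd9l, shNsd2 against MCTP (-0.158). With each library centred they were Irf1, shNsd2 against control (0.00946), Sp110, shNsd2 against control (0.00163), Oasl2, MCTP against control (0.0217), Parp9, MCTP against control (0.000285) and Ifih1, shNsd2 against MCTP (-0.0111). With quantile normalization they were Ifit2, MCTP against control (-0.0348), Eif2ak2, MCTP against control (0.00133), Sp110, MCTP against control (-0.0119), Lgals3bp, MCTP against control (-0.0186), Cmpk2, shNsd2 against MCTP (0.0457), Trim21, shNsd2 against MCTP (0.0232) and Sp110, shNsd2 against MCTP (0.0113). With 1 library left out, the lowest and highest values were Ifi35, shNsd2 against control (-0.00512 to 0.0584), Irf1, shNsd2 against control (-0.0193 to 0.00266), Samd9l, shNsd2 against control (-0.0347 to 0.179), Parp9, MCTP against control (-0.0852 to 0.0139), Eif2ak2, MCTP against control (-0.186 to 0.0637), Ifitm2, MCTP against control (-0.0439 to 0.109), Lgals3bp, MCTP against control (-0.0209 to 0.0796), Oasl2, MCTP against control (-0.0324 to 0.00528), Ifit2, MCTP against control (-0.134 to 0.0743), Samd9l, MCTP against control (-0.145 to 0.158), Jak1, MCTP against control (-0.0014 to 0.0397), Stat2, MCTP against control (-0.00804 to 0.0481), Herc6, MCTP against control (-0.189 to 0.00614), Cmpk2, shNsd2 against MCTP (-0.0214 to 0.00692), Ifih1, shNsd2 against MCTP (-0.059 to 0.108), Samd9l, shNsd2 against MCTP (-0.0862 to 0.212), Trim21, shNsd2 against MCTP (-0.00744 to 0.00704), Ifit2, shNsd2 against MCTP (-0.0189 to 0.189), Herc6, shNsd2 against MCTP (-0.154 to 0.0416), Eif2ak2, shNsd2 against MCTP (-0.183 to 0.0669) and Bst2, shNsd2 against MCTP (-0.0842 to 0.0159). The causes were not tested.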
